A study of Homo sapiens with 4 samples.

Results

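Transcripts of 42 interferon-stimulated genes were examined in 2 HER2-positive breast cancer cell lines and in a lapatinib-resistant clone of each. The genes form a list of known interferon targets that was drawn up with earlier results of these arrays known, although no measured value enters it, and their probes were found through the RefSeq accession that the array design gives for each probe. Of the 42 genes, 40 had a matched probe, 32 had a probe whose signal reached 100 on at least 1 array, and 8 stayed under that level. CMPK2 and IFI27 were not matched to a probe. For comparison, 16422 genes had a matched probe in all, and 12159 of them passed the same filter. SkBr3 and BT474 are established lines grown from HER2-positive breast carcinoma, and the parental cultures were labeled as vehicle treated. The resistant cells, called SkBr3/Lap and BT474/Lap, were selected in rising concentrations of lapatinib up to 1 μM, and each is a single clone. Lapatinib blocks the kinase activity of EGFR and HER2. The clone cultures are labeled as lapatinib treated, so that lasting resistance and the presence of the drug cannot be told apart. The sample labels and the study's text give the clone numbers the other way round, and no clone number is used here.

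Total RNA of each culture was hybridized to 1 Agilent whole genome array, giving 4 arrays in all and no replicate of any condition. The signal is the intensity that the scanner software gives after background subtraction, and it is not scaled between arrays. The 75th percentile of the probe signals ranged from 1115 in SkBr3 to 2074 in SkBr3/Lap, and 66.6% to 74.0% of probes were marked as well above background. Clones were set against their parental cells on the log2 scale after subtracting that percentile, and a difference of at least 2-fold was counted. Wherever 4 signals are given for a gene, they stand in the order SkBr3, SkBr3/Lap, BT474, BT474/Lap. The error given after ± is the scanner software's own error of the signal, with a median of 0.21 on the log2 scale over the measured differences. It covers the spread within an array and not that between cultures. Where only 1 array of a pair was well above background, the difference is given as a limit against the other array. The limit was taken from the dim signal itself or, where that was higher, from the weakest signal that carried the mark there, which was between 13.3 and 16.01. The SkBr3/Lap array lay on a slide of its own, so the SkBr3 comparison and the slide cannot be told apart, while the BT474 pair shared a slide.

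Interferons are secreted proteins that warn cells of infection. Type I and type III interferons bind receptors coupled to the kinases JAK1 and TYK2, which phosphorylate STAT proteins. STAT2 and IRF9 are subunits of the complex ISGF3, which binds the interferon-stimulated response element (ISRE). Interferon gamma acts through JAK1 and JAK2, and its targets often carry the gamma-activated site (GAS). The genes that respond encode proteins that block steps of a virus's life cycle, along with parts of the pathway itself. Tumor cells can carry a raised level of these transcripts without infection, and the level differs widely between cell lines.

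In SkBr3/Lap cells, 12 of the 31 interferon-stimulated genes with a value were at least 2-fold higher than in SkBr3 cells, or 38.7%, against 14.0% of all genes tested. They were STAT2, IRF1, DDX60, IFIT1, IFIT2, HERC5, HERC6, IFITM1, GBP1, GBP2, IFI6 and PARP9. OASL and BST2 were at least 2-fold lower, 2 of 31 against 13.4% of all genes. In BT474/Lap cells, 7 of 31 genes were at least 2-fold higher than in BT474 cells, or 22.6%, against 8.90% of all genes. They were OAS1, OAS3, IFIT1, IFIT2, HERC5, IFITM1 and IFI44. IRF7, USP18 and ISG20 were at least 2-fold lower, 3 of 31 against 5.30% of all genes. The median log2 difference was 0.50 in SkBr3/Lap, beside -0.05 over all genes. In BT474/Lap it was 0.48, beside -0.08. A gene whose signal reached 100 only in some conditions entered these counts through those conditions, so they do not describe all 42 genes. In bulk RNA, fewer cells with a transcript and less of it per cell cannot be told apart. Scaling by the array median gave 6 higher and 4 lower genes in BT474/Lap, against 7.17% and 8.45% of all genes. Normexp background correction followed by quantile normalization, called normexp from here on, gave 2 higher and 2 lower there (6.45% each), against 6.34% and 4.37% of all genes, so that the share of higher genes was then close to that of all genes. Quantile normalization alone gave 6 higher and 2 lower, against 8.53% and 6.12%.

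**Figure D1:**
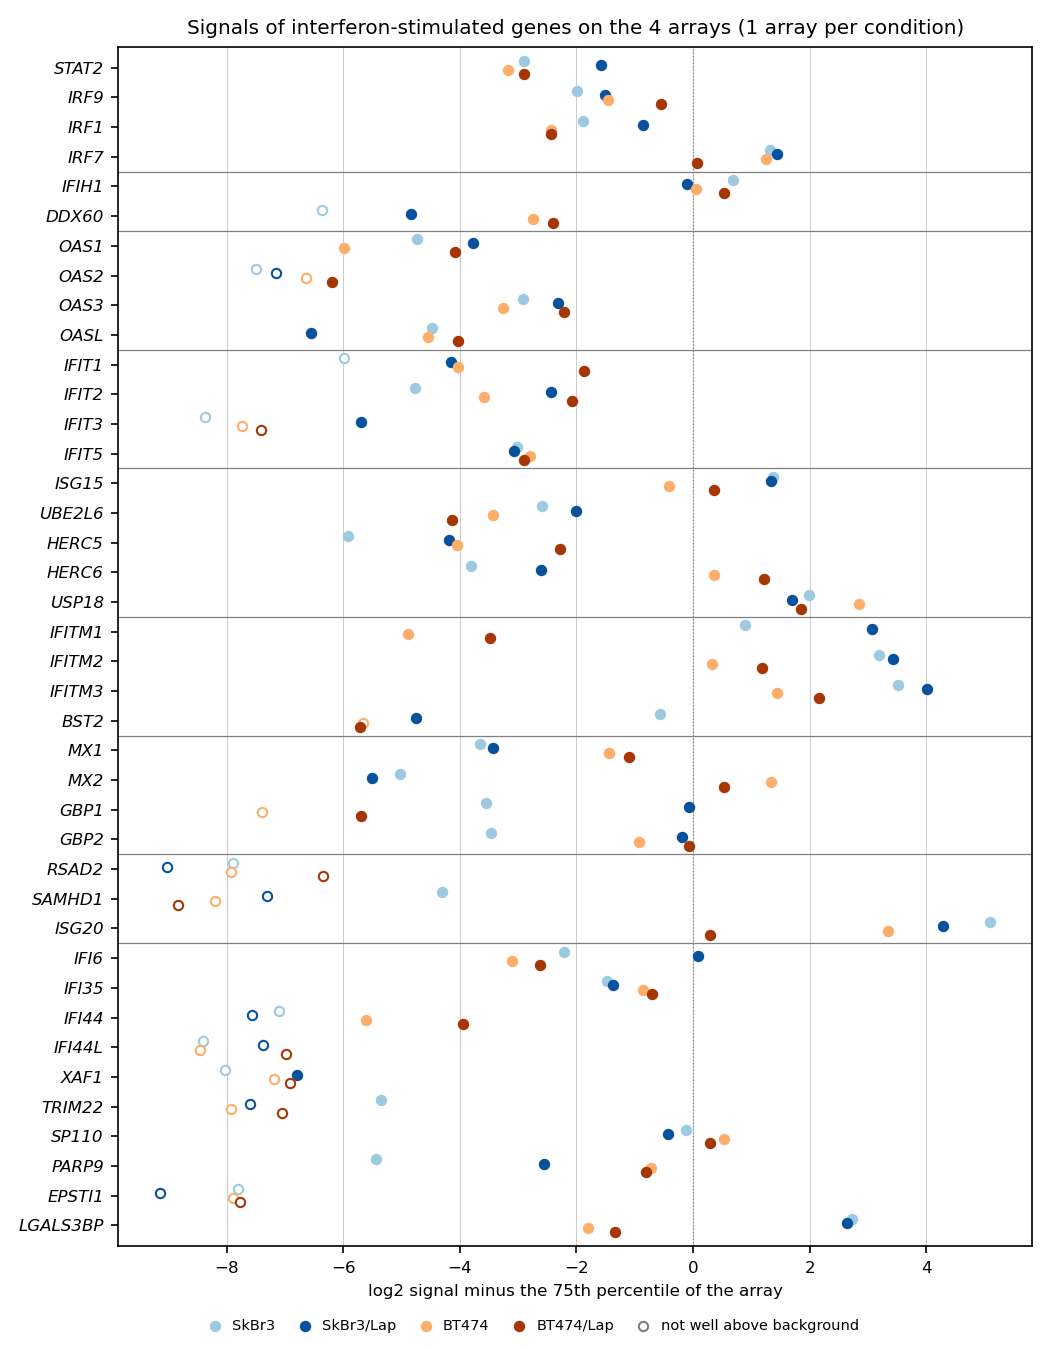
Signals of the 40 interferon-stimulated genes with a matched probe, grouped by role, as log2 signal minus the 75th percentile of the array. Each point is 1 array, light points are parental cells and dark points resistant clones, and open points were not well above background. IFIT1, IFIT2, HERC5 and IFITM1 lie further right in both clones than in their parental cells, and ISG20 and BST2 show the largest shifts to the left.

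The genes at least 2-fold higher in both clones were IFIT1, IFIT2, HERC5 and IFITM1. These were 4 of the 30 genes with a value in both comparisons, or 13.3%, against 2.63% of all genes. IFIT1, IFIT2 and HERC5 reached the signal filter of 100 only on arrays of the clones. They entered the 30 through the arrays where they were higher, so the share follows in part from the filter. No interferon-stimulated gene was at least 2-fold lower in both clones or changed in opposite directions (0 of 30 each, against 1.28% and 2.73% of all genes). IFIT1, whose product binds viral RNA that lacks the cap of host messages, had signals of 17.6, 117, 70.4 and 459. Its SkBr3 signal was not well above background, so it was at least 3.56-fold higher in SkBr3/Lap, and it was 4.50-fold higher in BT474/Lap. IFIT2, a relative that binds RNA and is linked to cell death, had signals of 40.9, 384, 96.2 and 398 and was 5.05-fold and 2.85-fold higher. HERC5, the ligase that attaches the ubiquitin-like protein ISG15 to its targets, had signals of 18.5, 114, 70.2 and 344. Its log2 differences of 1.74 ± 0.35 and 1.75 ± 0.22 differed by less than their errors. IFITM1, a membrane protein that hinders virus entry, had signals of 2071, 17372, 39.0 and 150, and was 4.51-fold and 2.66-fold higher. By this selection each clone was above its parental cells for all 4 genes. The levels from which they started differed between the lines. Across the 12 alternative settings, IFIT1 and IFITM1 were higher in both clones in 10 settings, and IFIT2 and HERC5 in 11. With normexp the log2 difference of IFIT1 in SkBr3/Lap was 0.72 and that of IFITM1 in BT474/Lap 0.52, while HERC5 gave 0.94 and 0.98.

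**Figure D2:**
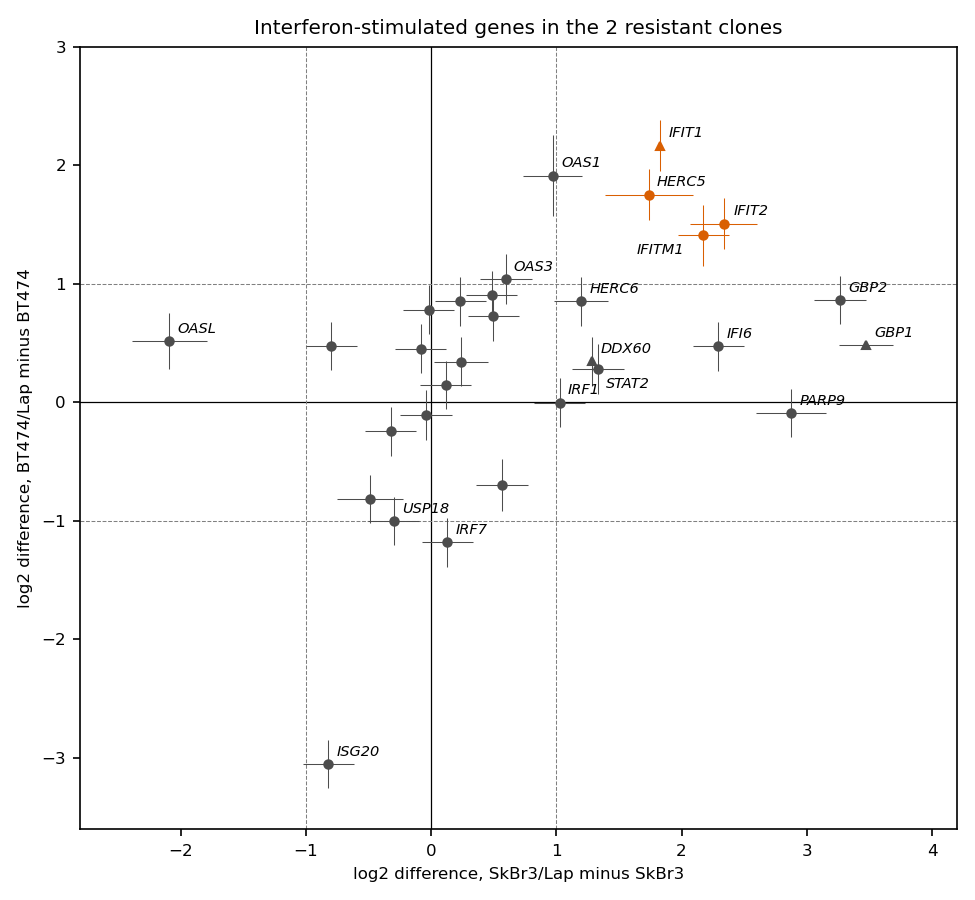
Log2 difference of BT474/Lap from BT474 plotted against that of SkBr3/Lap from SkBr3 for the 30 interferon-stimulated genes with a value in both. Bars are the scanner software's error, triangles mark genes for which 1 of the values is a lower limit, dashed lines mark 2-fold, and the genes in orange, IFIT1, IFIT2, HERC5 and IFITM1, are at least 2-fold higher in both. OASL lies far to the left and ISG20 far down.

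Across these 30 genes, which are not independent replicates, the correlation between the log2 differences in the 2 clones was 0.43 (Pearson r) or 0.48 (Spearman rho). Both differences were above 0 for 17 genes (56.7%), and 22 had the same sign (73.3%). Over all 11449 genes the coefficients were 0.09 and -0.01, and the shares 19.2% and 49.1%. The comparisons share no array, and limits were used at their bound. With the cell lines standing in for replicates, limma with cell line as a block and 1 residual degree of freedom called none of 25927 probes at an adjusted p below 0.05 (0%). The unadjusted p was below 0.05 for 900 of them (3.47%). None of the 32 interferon-stimulated genes passed the adjustment, where the lowest adjusted p was 1.00. Of the 32, 6 (18.8%) had an unadjusted p below 0.05, namely IFIT1, HERC5, GBP1, IFIT2, IFITM1 and OAS1. Without the block this number was 1 (3.12%, against 1.19% of all probes). With the slide as the block, the SkBr3/Lap array, alone on its slide, drops out of the resistance effect. That effect then rests on BT474/Lap against the parental arrays of both lines, so no count is given for it. The fit took each signal as measured, also where it was not well above background, as for IFIT1 in SkBr3 and GBP1 in BT474. The other GBP1 probe was 3.72-fold lower in BT474/Lap.

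The promoters of these genes were read from RefSeq for GRCh38.p14, from 250 bases before to 50 bases after each transcription start. Of the 42 genes, 33 were matched, and IFIT2, MX2, OAS2, OASL, IRF7, USP18, IFITM2, GBP2 and TRIM22 were not. The ISRE was searched on both strands as GAAANNGAAA, and the GAS as TTCNNNGAA, which reads the same on both strands. With all listed starts of a gene counted, an ISRE match was present for 22 of 33 genes (66.7%), against 4.38% of 27305 genes, and a GAS match for 11 of 33 (33.3%), against 9.38%. The ISRE was first described in promoters of such genes, so a high share is known background of the list. At the first start listed for each gene there were 38 ISRE matches in 20 genes, 30 of them within the 150 bases before the start, and 14 genes held at least 2. The motifs can overlap, and a match is a run of letters and not a measured binding site. Stretches are given here for the genes higher in both clones that were matched, for the gene with the largest positive difference (GBP1) and for those with the largest negative ones (BST2 and ISG20), so that genes with opposite differences can be set side by side. They are written in the direction of transcription with the ISRE matches in capitals. TTTCNNTTTC is the same motif read on the other strand.
IFIT1, chr10:89392487-89392559, plus strand: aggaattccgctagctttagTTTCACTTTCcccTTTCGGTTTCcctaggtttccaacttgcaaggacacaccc
HERC5, chr4:88456974-88457084, plus strand: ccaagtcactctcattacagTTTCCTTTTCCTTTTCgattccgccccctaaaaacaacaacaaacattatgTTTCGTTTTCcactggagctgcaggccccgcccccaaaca
IFITM1, chr11:313980-314039, plus strand: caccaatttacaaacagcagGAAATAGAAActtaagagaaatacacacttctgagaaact
GBP1, chr1:89065296-89065355, minus strand: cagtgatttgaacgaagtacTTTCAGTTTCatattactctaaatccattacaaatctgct
BST2, chr19:17405715-17405780, minus strand: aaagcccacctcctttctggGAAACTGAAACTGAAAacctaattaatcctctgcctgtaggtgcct
ISG20, chr15:88638927-88638986, plus strand: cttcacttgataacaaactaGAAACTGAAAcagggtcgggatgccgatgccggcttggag
The IFIT1 stretch holds 2 separate matches, the HERC5 stretch 3 of which 2 overlap, and the BST2 stretch 2 that overlap. Another IFITM1 match begins in the last bases of the stretch, runs past the start and is not in capitals. BST2, the most strongly lowered gene in SkBr3/Lap, and ISG20, the most strongly lowered in BT474/Lap, carried the motif as did most of the genes that were higher. In SkBr3/Lap, 7 of the 10 higher genes with a promoter and 8 of the 13 that changed by under 2-fold held an ISRE match. In BT474/Lap these numbers were 5 of 6 and 10 of 17.

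**Figure D3:**
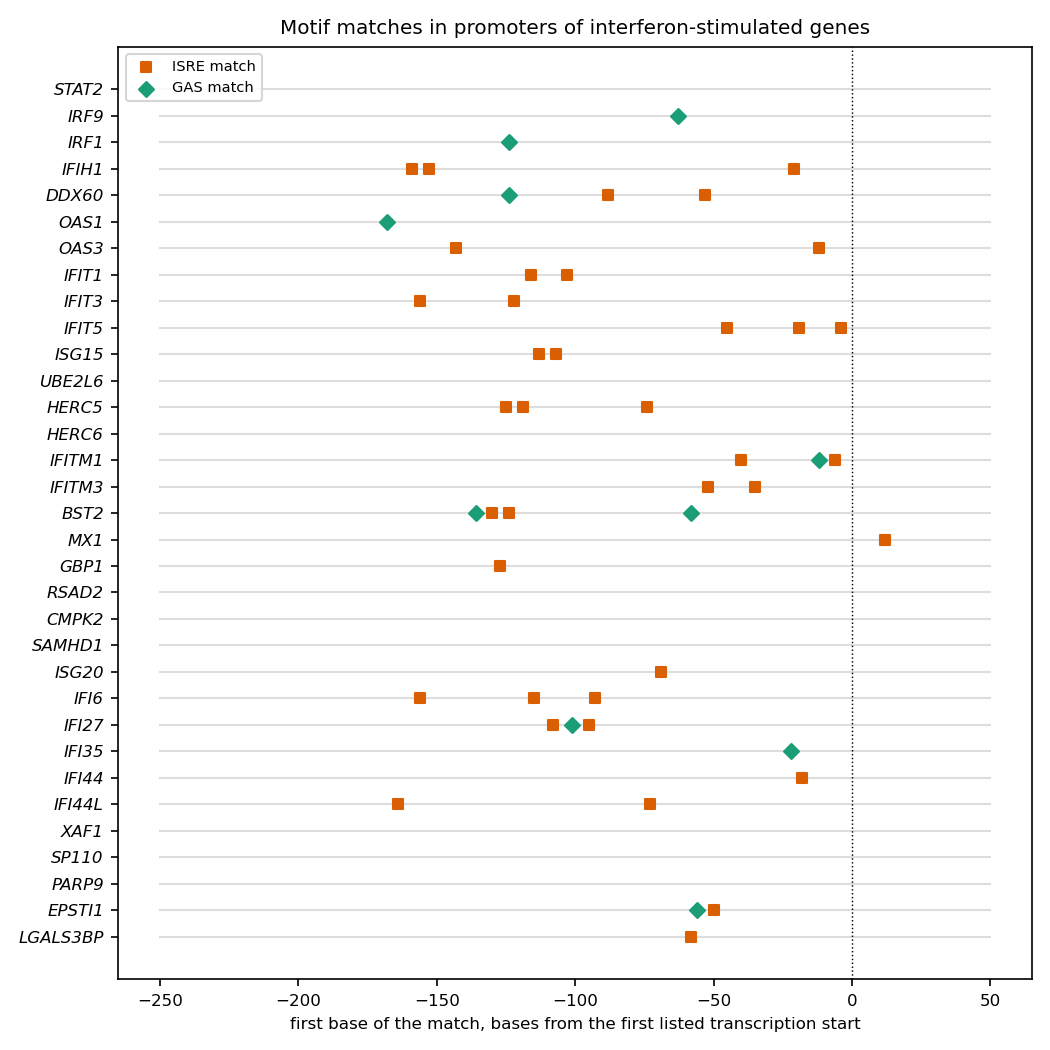
Positions of ISRE matches (squares) and GAS matches (diamonds) in the promoters of the 33 interferon-stimulated genes matched, in bases from the first listed transcription start of each gene, which is the dotted line. Most ISRE matches lie in the 150 bases before the start, and the lines without a symbol are genes with no match at that start.

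Among the transcription factors of the pathway, all 4 genes were above 0 in SkBr3/Lap and the 4 were divided in BT474/Lap. STAT2, the subunit of ISGF3 that carries its activation domain, had signals of 149, 696, 128 and 226. It was 2.52-fold higher in SkBr3/Lap, beside 1.22-fold in BT474/Lap. IRF9, the DNA-binding subunit of ISGF3, had signals of 281, 730, 420 and 1145, with log2 differences of 0.48 ± 0.20 and 0.91 ± 0.20, both under 2-fold. IRF1, an activator induced by interferon gamma, had signals of 301, 1142, 213 and 309 and was 2.04-fold higher in SkBr3/Lap, close to the threshold (0.98 on the log2 scale with 16 added to the signals), with a log2 difference of -0.0018 in BT474/Lap. IRF7, the activator of interferon alpha genes, went the other way in BT474. Its signals were 2775, 5647, 2767 and 1771, and it was 2.27-fold lower in BT474/Lap. A second, dimmer IRF7 probe gave a log2 difference of -1.29 in BT474/Lap, so both probes were at least 2-fold lower there.

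The RNA sensors differed from each other. DDX60, a helicase, had signals of 13.5, 72.6, 172 and 318. The SkBr3 signal was not well above background, which makes it at least 2.44-fold higher in SkBr3/Lap by its brighter probe and at least 1.33-fold by the other. With normexp its log2 difference there was 0.60. IFIH1, which encodes the sensor MDA5, had signals of 1795, 1923, 1196 and 2417. It gave log2 differences of -0.80 ± 0.20 and 0.48 ± 0.20, neither of which reached 2-fold.

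The OAS genes encode enzymes that make short oligoadenylates, which switch on the nuclease RNase L, and OASL is a member without that activity. OAS1 had signals of 41.7, 152, 18.2 and 99.5. It was 3.77-fold higher in BT474/Lap and 1.96-fold higher in SkBr3/Lap, just short of the threshold. OAS3 had signals of 148, 416, 121 and 361, and was 1.51-fold and 2.06-fold higher. A second OAS3 probe was 1.55-fold higher in BT474/Lap, under the threshold. OAS2 was well above background only in BT474/Lap, at a signal of 23.1. OASL stood apart from its relatives, with signals of 50.3, 21.99, 49.4 and 103, of which only the last reached the filter. It was 4.26-fold lower in SkBr3/Lap and gave a log2 difference of 0.52 ± 0.24 in BT474/Lap. With normexp, the OASL value in SkBr3/Lap was -0.70, under the threshold, and those of OAS1 and OAS3 in BT474/Lap were 0.59 and 0.69.

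In the IFIT family the genes IFIT1 and IFIT2, described above, contrasted with IFIT5. IFIT5 had signals of 137, 247, 167 and 225 and log2 differences of -0.04 ± 0.21 and -0.10 ± 0.21 that lay within their error. IFIT3 was well above background only in SkBr3/Lap, where its signal of 40.1 was at least 1.34-fold above the limit of the SkBr3 array. These 4 genes lie in a cluster on chromosome 10.

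ISG15 is joined to target proteins by the conjugating enzyme UBE2L6 and the ligase HERC5, and is removed by USP18, which also holds back the type I receptor. ISG15 itself had signals of 2868, 5260, 867 and 2165, with log2 differences of -0.02 ± 0.20 (SkBr3/Lap) and 0.78 ± 0.20 (BT474/Lap). UBE2L6 had signals of 186, 513, 107 and 95.8, with differences of 0.57 ± 0.21 and -0.70 ± 0.22. HERC6, a relative of HERC5, was 2.29-fold (SkBr3/Lap) and 1.81-fold (BT474/Lap) higher, from signals of 79.2, 338, 1483 and 3885, and its SkBr3/Lap value with normexp was 0.96 on the log2 scale. USP18 was the gene of this group with the lowest differences in both clones. Its signals were 4434, 6708, 8345 and 6043, and it was 1.23-fold lower in SkBr3/Lap and 2.004-fold lower in BT474/Lap, at the threshold itself. It was -0.92 on the log2 scale with quantile normalization. A second USP18 probe gave log2 differences of -0.24 and -1.09. The ligase HERC5 and the protease USP18 thus lay on opposite sides of 0 in both clones.

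The IFITM proteins sit in cell membranes and hinder the fusion of enveloped viruses, and BST2, or tetherin, holds budding virus particles at the cell surface. IFITM2 had signals of 10186, 22256, 1451 and 3804, and IFITM3 of 12706, 33330, 3138 and 7535. Both were above 0 in both clones, with log2 differences of 0.23 and 0.50 in SkBr3/Lap and of 0.85 and 0.73 in BT474/Lap, all under 2-fold. The 3 IFITM genes are close in sequence, and cross-hybridization between their probes was not tested. BST2 had the largest negative difference of all the genes, with signals of 753, 77.0, 22.8 and 32.1. It was 18.2-fold lower in SkBr3/Lap, a log2 difference of -4.19 ± 0.22. In BT474 it was not well above background, and no difference could be given for BT474/Lap.

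The guanylate-binding proteins are GTPases that attack the membranes around intracellular pathogens, and the MX proteins are GTPases that trap viral components. GBP1 had signals of 95.1, 1965, 6.87 and 32.4 by its brighter probe. It was 11.1-fold higher in SkBr3/Lap, the largest positive difference among these genes, and 11.9-fold higher by its other probe. In BT474/Lap the GBP1 probes disagreed, because the brighter probe gave a limit of at least 1.40-fold higher while the other, with signals of 48.8 in BT474 and 19.0 in BT474/Lap, was 3.72-fold lower. GBP2 had signals of 101, 1814, 606 and 1602, and was 9.62-fold and 1.82-fold higher. Neither MX gene reached 2-fold. MX1 had signals of 88.0, 193, 426 and 785, with log2 differences of 0.24 ± 0.21 and 0.34 ± 0.20. MX2 had signals of 34.4, 45.6, 2942 and 2425, with differences of -0.49 ± 0.26 and -0.82 ± 0.20.

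Enzymes that act on nucleotides and nucleic acids were dim or lower in a clone. ISG20, an RNA exonuclease, had signals of 38271, 40346, 11772 and 2058. It was 8.30-fold lower in BT474/Lap, the largest negative difference in that clone, and 1.76-fold lower in SkBr3/Lap, under the threshold. SAMHD1, which breaks down the building blocks of DNA, was well above background only in SkBr3 at a signal of 56.0, and was at least 7.84-fold lower in SkBr3/Lap. It was the gene nearest under the filter, and OASL, with a highest signal of 103, the one just inside it. RSAD2, which encodes viperin, was not well above background on any array.

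The other induced genes included some of the largest differences in SkBr3/Lap. IFI6, a small membrane protein linked to cell survival, had signals of 241, 2201, 135 and 273, and was 4.90-fold (SkBr3/Lap) and 1.39-fold (BT474/Lap) higher. PARP9, which acts in the response to DNA damage and to interferon, had signals of 25.7, 350, 702 and 958. It was 7.33-fold above SkBr3 in SkBr3/Lap and 1.06-fold lower in BT474/Lap. IFI44 had signals of 8.15, 10.9, 23.6 and 108. It was well above background only in the BT474 pair and was 3.17-fold higher in BT474/Lap. IFI35, SP110 and LGALS3BP differed by under 2-fold in both clones, with log2 differences between -0.32 and 0.46. SP110, a nuclear body protein, was the lowest of them in both clones, with signals of 1030, 1532, 1683 and 2063 and differences of -0.32 and -0.24. TRIM22 was well above background only in SkBr3, at a signal of 27.3, and was at least 3.82-fold lower in SkBr3/Lap. EPSTI1 and IFI44L were not well above background on any array, and XAF1 was so marked only in SkBr3/Lap, at a signal of 18.8. With normexp, the BT474/Lap difference of IFI44 was 0.74.

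The parental lines themselves differed in these genes. Between BT474 and SkBr3, 9 of 32 genes were at least 2-fold higher (28.1%, against 19.5% of all genes) and 9 at least 2-fold lower (against 19.1%), and the median absolute log2 difference was 1.51, against 0.75 over all genes. In BT474, MX2 was 82.4-fold, PARP9 26.3-fold and HERC6 18.0-fold higher, and DDX60 was at least 10.3-fold higher. In SkBr3, IFITM1 was 55.2-fold, LGALS3BP 22.9-fold and IFITM2 7.30-fold higher, and BST2 was at least 34.4-fold higher. The clones differed from each other in 20 of 32 genes, with 9 higher in BT474/Lap (against 23.6%) and 11 higher in SkBr3/Lap (against 24.3%). MX2 was still 65.6-fold higher in BT474/Lap, and IFITM1 93.7-fold higher in SkBr3/Lap. PARP9 went from 26.3-fold to 3.37-fold and BST2 from at least 34.4-fold to 1.94-fold between the parental and the resistant pair. These are single arrays, and no test was made of the differences between lines.

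Other genes linked to interferon were described from a separate list of 61, of which 59 had a probe and 34 passed the filter. It held ligands, receptors, kinases, sensors and regulators, and also interferon gamma targets and restriction factors, which are not upstream of the interferon-stimulated genes. In SkBr3/Lap, 10 of 32 were at least 2-fold higher (31.2%, against 14.0% of all genes) and 1 lower (3.12%, against 13.4%), with a median log2 difference of 0.32. In BT474/Lap, 8 of 33 were higher (24.2%, against 8.90%) and 1 lower (3.03%, against 5.30%), with a median of 0.38. Of the 10 higher genes in SkBr3/Lap, 5 were interferon gamma targets and 1 was a restriction factor. Of the 8 in BT474/Lap, these numbers were 3 and 1. The shares for the whole list are therefore not shares of upstream genes. They also hold genes that passed the filter only through a clone in which they were higher, such as IRF8, CIITA and APOBEC3F. None of the 15 interferon ligands with a probe reached a signal of 100 on any array. IFNA4 and IFNL2 were the only ligands well above background, with unscaled signals of 33.3 to 90.2 and of 48.5 to 88.2. After scaling, the log2 differences of IFNA4 were -0.45 in SkBr3/Lap and 0.52 in BT474/Lap. Those of IFNL2 were -0.30 and -0.17.

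Among the receptor genes, the subunit of the type III receptor differed most in SkBr3/Lap, and IFNAR2 in BT474/Lap. IFNLR1 had signals of 135, 2503, 199 and 511, and was 9.97-fold and 1.77-fold higher. IFNGR1, the ligand-binding subunit of the interferon gamma receptor, was 2.74-fold higher in SkBr3/Lap, with a log2 difference of -0.55 in BT474/Lap. IFNAR2, a subunit of the type I receptor, was 2.14-fold higher in BT474/Lap from a signal of 24.5, with 0.23 in SkBr3/Lap. IFNAR1, IFNGR2 and IL10RB, the partner subunits, lay between -0.86 and 0.82. JAK2, the kinase of the interferon gamma receptor, had signals of 146, 237, 25.3 and 245, and was 6.66-fold higher in BT474/Lap, with a log2 difference of -0.19 in SkBr3/Lap. JAK1 gave 0.28 in SkBr3/Lap and 0.78 in BT474/Lap by its brighter probe, whereas its other probe gave 1.72 in BT474/Lap. TYK2 gave -0.85 and 0.10.

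Interferon gamma targets that were not on the list of 42 were also described, and 7 of 13 passed the filter. Of these, 5 of 6 with a value were at least 2-fold higher in SkBr3/Lap, against 14.0% of all genes, and 3 of 7 in BT474/Lap, against 8.90%. The 6 that did not pass the filter are not in these counts. IRF8 passed it only through the clones and CIITA only through BT474/Lap, so their place among the higher genes follows in part from the filter. PSMB8, PSMB9 and PSMB10, the subunits of the immunoproteasome, were 3.75-fold, 7.62-fold and 2.74-fold higher, and TAP1, the peptide transporter of antigen presentation, 3.42-fold higher. The fifth was IRF8, at least 6.97-fold higher. In BT474/Lap, PSMB8 was 2.03-fold, CIITA 8.03-fold and IRF8 at least 5.98-fold higher, while WARS1, a tRNA synthetase, was 5.28-fold lower. Another CIITA probe, under the filter, was at least 2.93-fold higher in BT474/Lap and at least 7.46-fold lower in SkBr3/Lap. SOCS3, an inhibitor of JAK signaling, was 5.44-fold (SkBr3/Lap) and 2.44-fold (BT474/Lap) higher, the only regulator on this list at least 2-fold higher in both. Of the sensors and adaptors, RIGI was 2.20-fold lower and the kinase IKBKE 2.88-fold higher in SkBr3/Lap. PIAS1, an inhibitor of STAT signaling, was 2.04-fold higher in BT474/Lap. The restriction factor APOBEC3F was at least 3.87-fold higher in SkBr3/Lap, and APOBEC3B 2.31-fold higher in BT474/Lap.

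**Figure D4:**
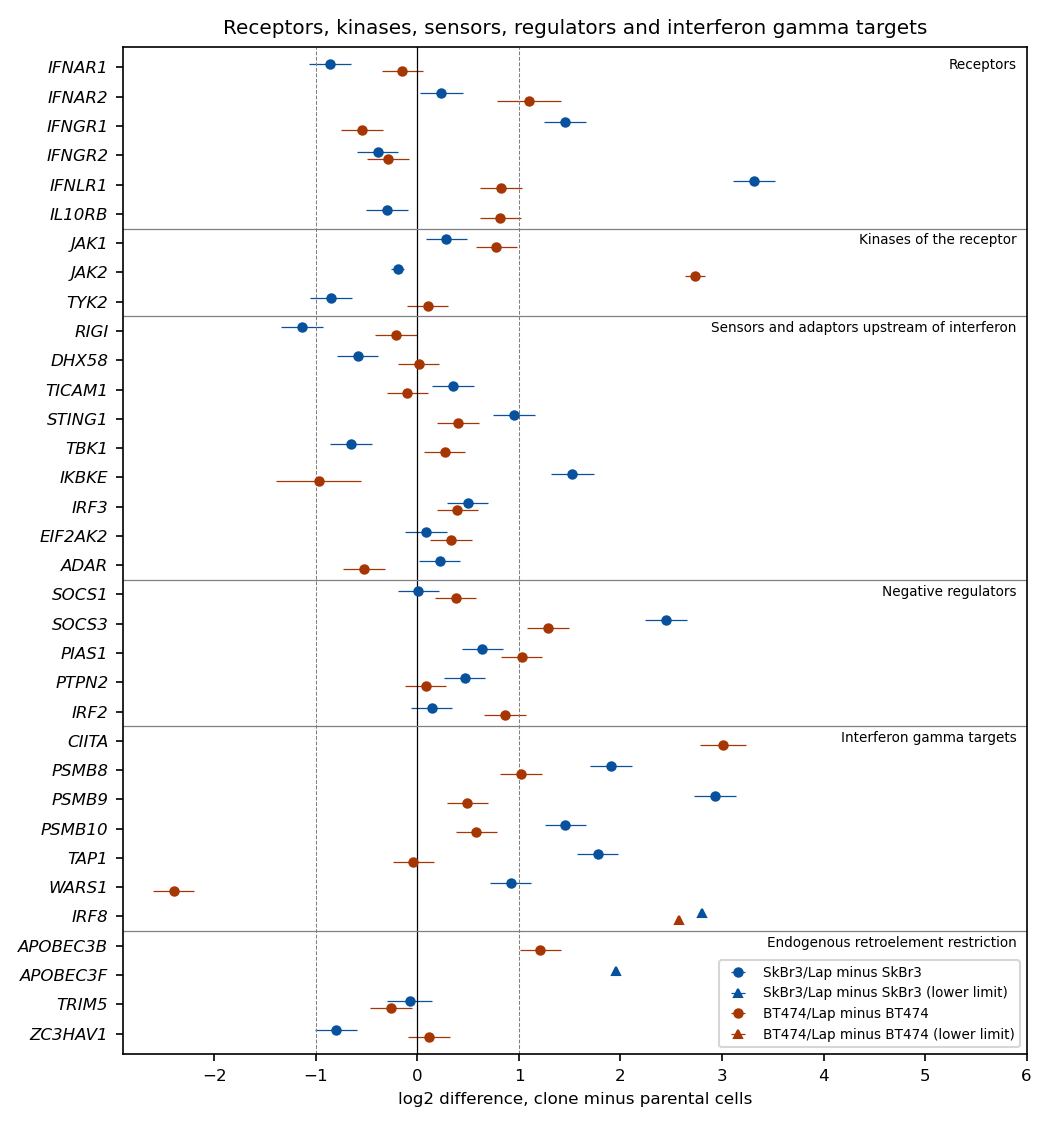
Log2 difference of each clone from its parental cells for the genes of the separate pathway list that passed the filter, grouped by role, with the scanner software's error as bars and lower limits as triangles. IFNLR1, PSMB9 and SOCS3 lie furthest right for SkBr3/Lap among measured values, and CIITA and JAK2 for BT474/Lap, while WARS1 lies furthest left.

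Reference genes and markers of cell identity were given as a check of the arrays. GAPDH differed by -0.43 and -0.02 on the log2 scale in SkBr3/Lap and BT474/Lap, TBP by 0.77 and -0.03, and HPRT1 by 0.64 and 0.22. ACTB differed by -0.51 and -0.86 by its brightest probe, and its 4 probes lay between -0.51 and 0.53 in SkBr3/Lap and between -0.86 and -0.57 in BT474/Lap. B2M, which interferon also raises, was 2.04-fold (SkBr3/Lap) and 1.35-fold (BT474/Lap) higher. All 8 markers of HER2-positive luminal cells were well above background on every array, and their summed signal, relative to the 75th percentile, in the same order of arrays was 837, 492, 759 and 500. Their log2 differences in SkBr3/Lap ran from -2.43 for FOXA1 and -1.90 for ERBB2 to 0.96 for GATA3, and those in BT474/Lap from -0.93 for EPCAM to 0.26 for GATA3. The summed level of 8 leukocyte markers ranged from 0.504 to 0.877 over the arrays, with 4 to 6 well above background, and PTPRC and MS4A1, which define leukocytes and B cells, were not well above background on any array. CLEC4C, which defines plasmacytoid dendritic cells, the main interferon producers of blood, was also dim on all 4 arrays. The summed level of the 4 markers of that cell was between 0.136 and 0.781. Of the other markers, LILRA4 and TCF4 were well above background on every array, and IL3RA only on those of the clones. TCF4, the brightest of these markers on each array, had signals of 820, 359, 109 and 286. Its log2 difference was -2.09 for the SkBr3 pair and 0.85 for the BT474 pair. Of 5 fibroblast markers with a probe, 2 were well above background in SkBr3/Lap and 0 on the other arrays. These were COL3A1, at least 11.7-fold higher, and PDGFRB, at least 2.18-fold higher. COL1A2, DCN and LUM were dim on all 4 arrays. Their summed level was 0.208 in SkBr3/Lap and 0.0122 to 0.0207 elsewhere. The 4 endothelial markers summed to 0.166, 0.685, 0.785 and 0.394. In SkBr3/Lap, CDH5 was 8.43-fold, PECAM1 at least 5.38-fold and VWF 1.44-fold higher. In BT474/Lap, PECAM1 was at least 2.38-fold higher and VWF 2.18-fold lower. These VWF values are from its brighter probe. The other VWF probe, under the filter, went the other way, 3.22-fold lower in SkBr3/Lap and at least 1.05-fold higher in BT474/Lap. The part of these markers in the differences of the interferon-stimulated genes was not tested.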

How the data were processed

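The authors deposited, for each spot of 4 single-color Agilent arrays, an intensity from which the background had been subtracted (the processed signal). Per the file headers it was made with Feature Extraction 10.1.1.1 from 1 channel. The study's methods name an earlier version, 2 dyes and LOWESS normalization, which the headers do not show. The authors also deposited a table of log2 values, which followed the log2 processed signals with a Pearson r of 1.00 over differences and was centered for each probe, with column medians of 0.12, -0.20, 0.11 and -0.05. Its direction was that of the signals. The 42 genes, the pathway list and the tests were chosen with earlier results of these data known. One gene of the pathway list is not reported here and was left out of its counts.

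Spots of a probe were averaged as log2, and the array's 75th percentile over 41000 probes was subtracted. Probes with a signal of at least 100 on at least 1 array were kept (25927), and of several kept probes of a gene the one with the brightest mean stood for it. A probe was well above background when 50% of its spots or more carried that mark. RefSeq accessions named 23680 probes. No spot was saturated. With 1 array per condition the number of arrays limits the precision, so differences carry no p-value. limma 3.58.1 in R 4.3.3 was fitted to all 4 arrays with Benjamini-Hochberg adjustment, and the other steps used Python 3.11.15, numpy 2.4.6 and pandas 2.3.3. The calculations were tested on simulated data. All 42 genes are named, with values on every array for genes changed at least 2-fold in both clones, for the largest rise and fall of each role in each clone and for genes whose kept probes disagreed in direction by at least 2-fold. Other genes were given values after theirs were seen, and the comparison of the cell lines was added after the data were seen. The alternatives were 3 other scalings (the 75th percentile over probes well above background, the median, quantile normalization), the deposited log2 table, normexp (offset 50) followed by quantile normalization, 16 added to the signal, no filter, a filter on all 4 arrays, outlier spots left out, the mean over probes, a threshold of 3-fold, values without limits, and limma without the block, with the slide as a block, with quantile normalization and with either filter.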

Additional observations from a re-analysis of the deposited data

Results flagged for a closer look

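OASL moved in opposite ways in the clones, with a log2 difference of -2.09 in SkBr3/Lap against 0.52 in BT474/Lap. The other GBP1 probe, the dimmer of the pair, did so too, with 3.58 in SkBr3/Lap and -1.90 in BT474/Lap. The brighter probe, which stood for GBP1, gave a limit of at least 1.40-fold higher in BT474/Lap. The difference between the cell lines was not tested for either gene, since each value rests on 1 array per condition.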

How the results depend on the processing

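Each condition has a single array, so no replicate numbers pair the samples. Cell line served as the block in limma. Without it, with no replicate block, 0 of 32 interferon-stimulated genes passed the adjusted threshold, and the unadjusted number was 1. None passed with quantile normalization or with either filter, where the unadjusted numbers were 6 to 8. The slide as a block left SkBr3/Lap out of the effect, and no count is given for it. With the 75th percentile over probes well above background, the BT474/Lap median was 0.58. With median scaling, which shifted the median of all genes by 0.16 in SkBr3/Lap and -0.21 in BT474/Lap, the medians were 0.65 and 0.27, and the split of all genes became 1967 higher and 1289 lower in SkBr3/Lap, from 1646 and 1580, and 846 and 997 in BT474/Lap, from 1053 and 627. The BT474/Lap median was 0.31 with quantile normalization and 0.22 with normexp. Normexp left 8 higher genes in SkBr3/Lap, from 12 (25.8%, against 11.5% of all genes), and 1 lower gene (3.23%, against 9.91%). It left 2 higher genes in BT474/Lap (6.45%, against 6.34%) and 1 gene, IFIT2, higher in both. Without the filter, 4 genes were lower in SkBr3/Lap (11.8%, against 14.2% of all genes), SAMHD1 and TRIM22 among them. With probes well above background on all 4 arrays, 1 gene was lower in SkBr3/Lap (3.57%, against 12.7%) and 4 in BT474/Lap (14.3%, against 4.65%). There 1 gene, GBP1, differed in opposite directions, since its other probe then stood for it. At 3-fold, 8 genes were higher in SkBr3/Lap (25.8%, against 8.41% of all genes). In BT474/Lap, 4 were higher (12.9%, against 4.87%) and 1 lower (3.23%, against 2.23%) at that threshold. HERC5 and IFIT1 were the 2 genes higher in both clones. Median scaling and quantile normalization added OAS1 to the genes higher in both. The share of all genes higher in both clones is not given for these settings, so these numbers cannot be set against it. The cause of the other moves was not tested, except that a stricter threshold calls fewer genes by construction. No value called with the main setting changed sign, but GBP1 in BT474/Lap ranged from -1.90 to 0.59, and the signs of small differences turned with the setting for IFIT5, IFI35, IRF1, PARP9 and STAT2 in BT474/Lap and for IFIT5, ISG15 and LGALS3BP in SkBr3/Lap. Signals near background limit the values of OASL, IFI44, OAS1 and the 8 genes under the filter. The genes higher in both clones share this limit. In SkBr3 the signals were 17.6 for IFIT1, 18.5 for HERC5 and 40.9 for IFIT2, and in BT474 that of IFITM1 was 39.0. PARP9 and DDX60 in SkBr3 and GBP1 and BST2 in BT474 were dim too, at 25.7, 13.5, 6.87 and 22.8.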

Other observations

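In the RefSeq order of GRCh38.p14, 20 of the 42 genes lay in 8 clusters of neighbors. GBP1 and GBP2, neighbors on chromosome 1, were both at least 2-fold higher in SkBr3/Lap, with log2 differences of 3.47 and 3.27. HERC5 and HERC6, neighbors on chromosome 4, were both higher there too, with 1.74 and 1.20. MX1 and MX2, neighbors on chromosome 21, lay on opposite sides of 0 in both clones, with 0.24 and -0.49 in SkBr3/Lap and 0.34 and -0.82 in BT474/Lap. Of the 3 IFITM genes on chromosome 11, IFITM1 alone reached 2-fold in either clone. Neighboring genes can share regulatory sequence, and no test of position was made.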
